A study of Homo sapiens with 12 samples.

Results

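The genes of the hypoxia response outside glycolysis were followed in a lens epithelial cell line given 1,2-DHN, asparagine or both. The set held 34 of the 60641 gene symbols in the count table. Of these, 7 code for subunits of hypoxia-inducible factor (HIF) or for its oxygen-dependent regulators, and 27 were listed as HIF targets that are not enzymes of glycolysis. PPFIA4, APLN, CA9 and ADM were chosen by the size of their differences between groups of these same libraries as well, so their values are given as a description with no test, and every count of called genes below is over the other 30. Those 30 and the further HIF lists were also chosen with earlier results of these data known. Their shares called, beside those of all tested genes, are therefore a description too. None of the 34 was lost to the filter on low counts, which left 17889 genes for testing.

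RNA was sequenced from SRA01/04 cells, an immortalised line of human lens epithelium, 24 hours after treatment. DHN-A cells received 1,2-DHN (1,2-dihydroxynaphthalene, a metabolite of naphthalene) together with asparagine, DHN cells 1,2-DHN without asparagine, NC-A cells asparagine without 1,2-DHN, and NC cells neither, with 3 libraries in each group. Every group comes from the same single line, and the sources used here give no doses, order of addition or incubator oxygen. The labels do not tell whether the libraries of a group are separate cultures, and p-values therefore measure only how these samples spread, which may be technical. The study asks whether asparagine changes what 1,2-DHN does to these cells.

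HIF is built from an oxygen-labile alpha subunit, encoded by HIF1A or EPAS1, and a stable partner, ARNT. In oxygen, the prolyl hydroxylases EGLN1, EGLN2 and EGLN3 mark the alpha subunit for the ubiquitin ligase that contains VHL, and the asparaginyl hydroxylase encoded by HIF1AN keeps it from its coactivators. When oxygen, iron or 2-oxoglutarate runs short, the alpha subunit escapes destruction and raises genes for mitochondrial turnover, acid export, collagen maturation, chromatin demethylation and vessel growth. The lens has no blood vessels and is normally poor in oxygen, and the amount of HIF protein, which RNA counts do not show, is set mainly by its degradation.

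Total counts ran between 12381071 in DHN 1 and 27526206 in DHN-A 1. The common biological coefficient of variation in edgeR, the relative spread within groups apart from counting noise, was 4.6%. On the first principal component (33.9% of variance) NC-A 1 was at -65.1, while the other NC-A libraries were at -12.5 and -10.4. With NC-A 1 left out, 2 of the 30 genes were still called higher and 18 lower in NC-A against NC. Of 14 lens epithelium markers 5 passed the filter on low counts, led by PAX6 at 25.4 CPM in DHN-A, 29.8 in DHN, 23.04 in NC-A and 25.2 in NC (CPM, counts scaled to library size, computed here). The lens proteins CRYAA, MIP and LIM2 were at or near 0. The summed level of the 14 lens markers was 46.0 to 49.2 CPM in DHN-A, 58.1 to 63.1 in DHN, 40.8 to 42.5 in NC-A and 44.3 to 45.5 in NC. The sum holds CRYAB, which averaged 3.815 CPM in DHN-A, 10.8 in DHN, 1.10 in NC-A and 0.704 in NC. In CPM, CRYAB differed more between DHN and NC than PAX6 did. Of 8 fibroblast markers 6 passed, with sums of 1450 to 1515 CPM in DHN-A, 957 to 1013 in DHN, 1495 to 1516 in NC-A and 1700 to 1806 in NC. Of 6 endothelial markers 4 passed, with sums of 220.4 to 235 CPM in DHN-A, 174.5 to 184 in DHN, 216 to 223 in NC-A and 239 to 253 in NC, and the 6 immune markers summed to at most 4.69 CPM in any library. Each of the fibroblast and endothelial sums was mostly the level of 1 gene. COL1A1 averaged 1050 CPM in DHN-A, 692 in DHN, 1044 in NC-A and 1234 in NC, while DCN and LUM were at or near 0. Other fibroblast markers were expressed too, with COL6A3 at 252 CPM in DHN-A, 140 in DHN, 289 in NC-A and 331 in NC. THY1 averaged 97.5 CPM in DHN-A, 83.6 in DHN, 97.3 in NC-A and 103 in NC. Group means of COL1A2 and PDGFRB lay between 27.59 and 51.35 CPM, and those of COL3A1 were at most 2.04. TIE1 averaged 221 CPM in DHN-A, 174 in DHN, 214 in NC-A and 238 in NC, while CDH5, KDR, TEK and VWF had group means of at most 1.75 CPM. Both sums were lowest in DHN and highest in NC, and their part in the results below was not tested.

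The core of a HIF binding site is ACGTG or GCGTG, and both were searched on both strands of each RefSeq promoter window (GRCh38.p14, 250 bases before to 50 after the annotated start), with overlapping matches counted as 1 site. The 5 stretches shown here are the 250 bases before the start of 3 genes that were lower in DHN than in NC and of 2 that were higher, with the matches in capitals (CACGC and CACGT are the 2 core forms read on the other strand, and CACGTG holds a match on each strand). PPFIA4 (chr1:203026241-203026490, plus strand) codes for a liprin, a scaffold protein, FAM162A (chr3:122383932-122384181, plus strand) for a mitochondrial membrane protein and PLOD2 (chr3:146161185-146161434, minus strand) for a collagen lysyl hydroxylase. EGLN3 (chr14:33951075-33951324, minus strand) codes for a HIF prolyl hydroxylase and ANGPTL4 (chr19:8363905-8364154, plus strand) for a secreted inhibitor of lipoprotein lipase.
PPFIA4: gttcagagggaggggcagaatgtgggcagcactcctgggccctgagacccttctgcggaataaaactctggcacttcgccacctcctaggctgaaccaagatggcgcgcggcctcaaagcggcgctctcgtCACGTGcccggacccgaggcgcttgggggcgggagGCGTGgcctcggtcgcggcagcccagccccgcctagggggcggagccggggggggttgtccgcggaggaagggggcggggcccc
FAM162A: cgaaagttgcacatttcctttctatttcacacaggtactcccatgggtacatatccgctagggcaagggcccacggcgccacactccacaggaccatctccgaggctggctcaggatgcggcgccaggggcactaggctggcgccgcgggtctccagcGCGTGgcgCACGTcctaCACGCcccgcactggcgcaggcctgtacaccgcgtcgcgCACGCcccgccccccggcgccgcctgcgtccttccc
PLOD2: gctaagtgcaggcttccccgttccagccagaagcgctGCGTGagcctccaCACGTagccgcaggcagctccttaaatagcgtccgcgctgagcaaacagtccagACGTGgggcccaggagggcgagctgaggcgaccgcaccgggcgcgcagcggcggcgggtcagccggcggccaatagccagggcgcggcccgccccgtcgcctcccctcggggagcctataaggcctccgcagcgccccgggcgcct
EGLN3: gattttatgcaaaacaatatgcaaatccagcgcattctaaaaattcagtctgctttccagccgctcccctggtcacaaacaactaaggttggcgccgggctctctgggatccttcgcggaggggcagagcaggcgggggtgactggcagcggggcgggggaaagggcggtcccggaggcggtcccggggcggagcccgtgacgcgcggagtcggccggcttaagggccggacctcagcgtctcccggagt
ANGPTL4: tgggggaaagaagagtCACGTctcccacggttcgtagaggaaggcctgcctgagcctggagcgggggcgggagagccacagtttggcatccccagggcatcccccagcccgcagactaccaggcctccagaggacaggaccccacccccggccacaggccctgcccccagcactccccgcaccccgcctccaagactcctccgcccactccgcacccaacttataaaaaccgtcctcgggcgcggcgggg

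PPFIA4 held 2 sites, 1 of them a CACGTG, FAM162A held 4 within a stretch close to its start, and PLOD2 held 3. ANGPTL4 held 1 site at the far end of its window and EGLN3 held none. These 5 are examples. Among all single-window genes lower in DHN than in NC, sites ran from 1 (P4HA1, EGLN1 and CA9) to 5 (BNIP3). Among those higher, they ran from none (EGLN3 and HIF1AN) to 2 (STC2). Site number was not tested against the direction of change. RefSeq windows were matched for 28 of the 34 genes, and 22 of these had a single window. A core match was present in 19 of those 22 windows (86.4%), against 62.9% of the 8185 tested genes with a single window and 47.3% of all 22114 symbols with one. Matches at 2 or more sites were in 13 of 22 (59.1%, against 30% of the tested genes), and a CACGTG was in 6 (27.3%, against 10%). Most of the 22 had been listed as HIF targets, and PPFIA4, APLN, CA9 and ADM are among them. These shares are therefore a description, and the excess was not tested. The windows of the 22 genes had a median GC content of 68%, against 65.3% for the tested genes, and the motif itself is rich in GC. EGLN3, P4HA2 and HIF1AN were the 3 without a match. Among the 6 genes with several windows, a match was in 1 of 2 for HIF1A and EGLN2, 3 of 3 for LOX, 2 of 2 for KDM3A, 2 of 3 for MXI1 and 4 of 4 for AK4. VHL, VEGFA, BNIP3L, NDRG1, HILPDA and STC1 were not matched. A match is a string of letters and not a bound site, and the absence of one says only that these letters are not in the window.

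**Figure D1:**
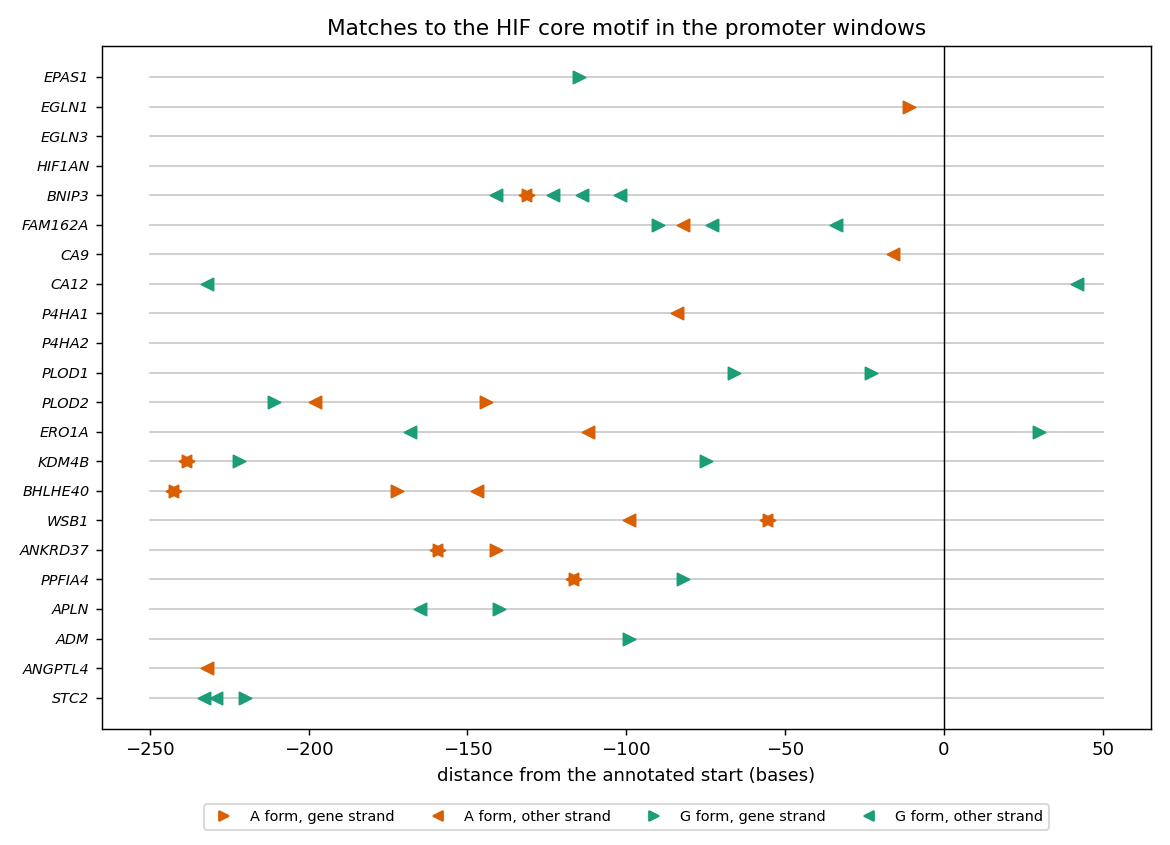
Positions of HIF core matches in the promoter windows of the 22 genes with a single RefSeq window, with the distance from the annotated start in bases on the horizontal axis and a row for each gene. Orange marks the ACGTG form and green the GCGTG form, and the arrowhead gives the strand. At a CACGTG, orange arrowheads of both strands overlap. BNIP3 has 5 sites, and EGLN3, P4HA2 and HIF1AN have none.

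The levels per length in untreated cells spanned a wide range. On the TPM scale (counts per gene length and library, computed here from the deposited counts and lengths), NC cells had a mean of 708 TPM for HIF1A, 587 for STC1, 316 for BHLHE40, 298 for PLOD1 and 245 for BNIP3. EPAS1, the other alpha subunit, had 46.1 TPM. The lowest were EGLN3 at 1.65 and EGLN2 at 1.67 TPM.

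With 1,2-DHN and no asparagine, most HIF targets were lower. Of the 30 genes, 19 fell and 5 rose in DHN against NC (edgeR quasi-likelihood test, Benjamini-Hochberg adjusted p under 0.05 over all tested genes, as for every call), where 19.0% of all tested genes were called lower and 19.7% higher. The median log2 change of the 30 was -0.34, against 0.0073 over all tested genes. The falls ran through mitophagy, collagen modification and chromatin genes, and the 5 rises were EGLN3, HIF1AN, VEGFA, ANGPTL4 and STC2. As a share of the 30, these rises are near or under that of all genes. In a bulk culture, fewer cells of a kind and less RNA per cell cannot be told apart.

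Asparagine without 1,2-DHN also lowered much of the set. In NC-A against NC, 18 of the 30 genes fell and 2 rose, where 10.9% of all tested genes were called lower and 9.32% higher. The median log2 change was -0.30, against 0.0031 over all tested genes, and the 2 rises were VEGFA and STC2. Here too the share that rose is near or under that of all genes. This comparison and that of DHN against NC share the NC libraries.

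In the presence of asparagine, 1,2-DHN moved few genes of the transcriptome, and the HIF targets were among them. In DHN-A against NC-A, 13 of the 30 genes fell, where 1.29% of all tested genes were called lower and 0.805% higher. The edgeR test called 0 of the 30 higher, with 1, ANGPTL4, at an unadjusted p under 0.05 in that direction, and DESeq2 and limma-voom also called 0. The median log2 change was -0.16, against 0.0030 over all tested genes. Without NC-A 1, 12 of the 30 were called lower, where 0.999% of all tested genes were.

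In DHN-A against DHN, which asks what asparagine did in cells given 1,2-DHN, 11 of the 30 genes fell and 5 rose, where 20.8% of all tested genes were called lower and 20.9% higher. The share that rose is near or under that of all genes. The 5 rises were LOX, FAM162A, ERO1A, STC2 and BHLHE40, and without DHN 3 or without DHN-A 2 only 3 genes were called higher. The median log2 change was -0.064, against 0.0091 over all tested genes. This comparison shares the DHN libraries with that of DHN against NC. In DHN-A against NC, which sets both compounds against neither, 19 genes fell and 2 rose, where 11.2% of all tested genes were called lower and 9.83% higher, and the median was -0.42.

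**Figure D2:**
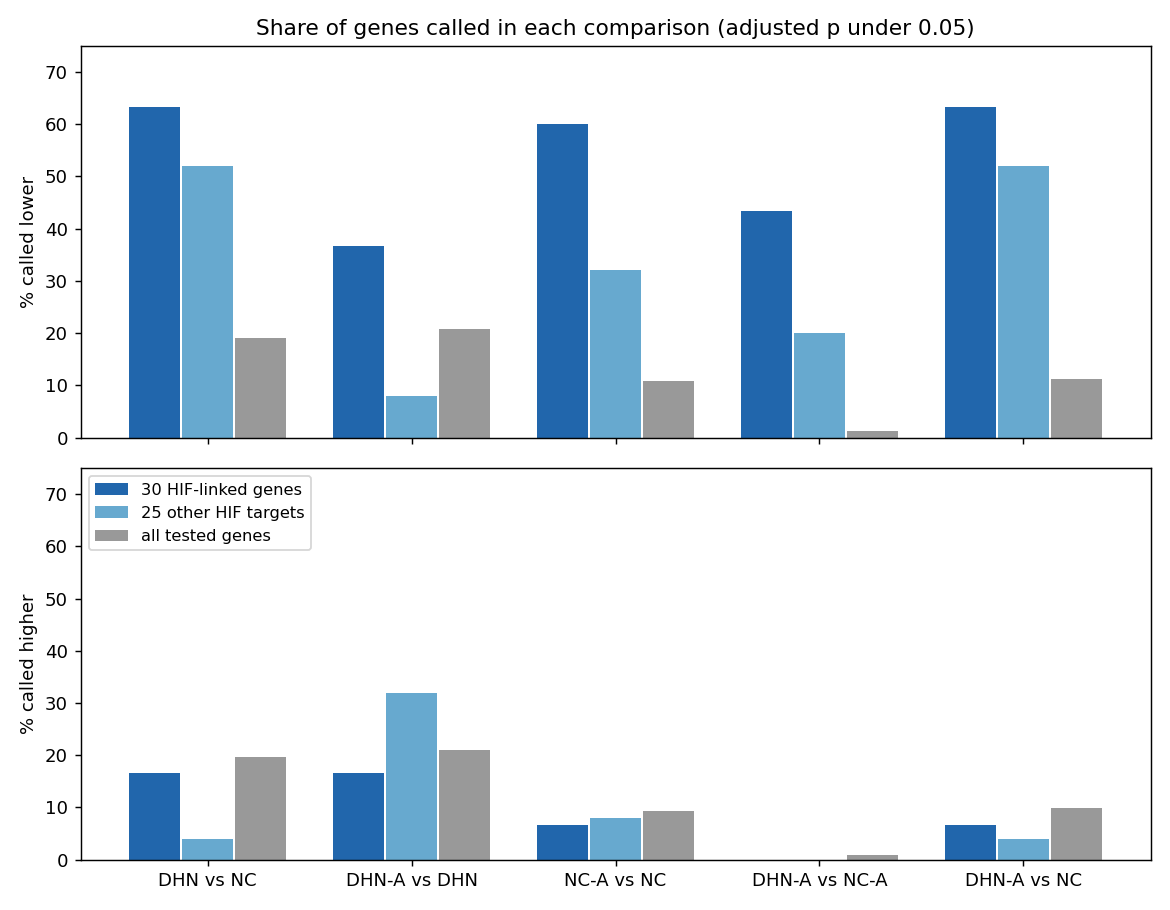
Bars give the percent of genes called lower (upper panel) and higher (lower panel) in each of 5 comparisons, for the 30 HIF-linked genes, 25 other HIF targets and all 17889 tested genes. In DHN-A against NC-A 13 of the 30 were called lower, against 1.29% of all tested genes, while in DHN-A against DHN the share of the 30 called higher lay under that of all genes.

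**Figure D3:**
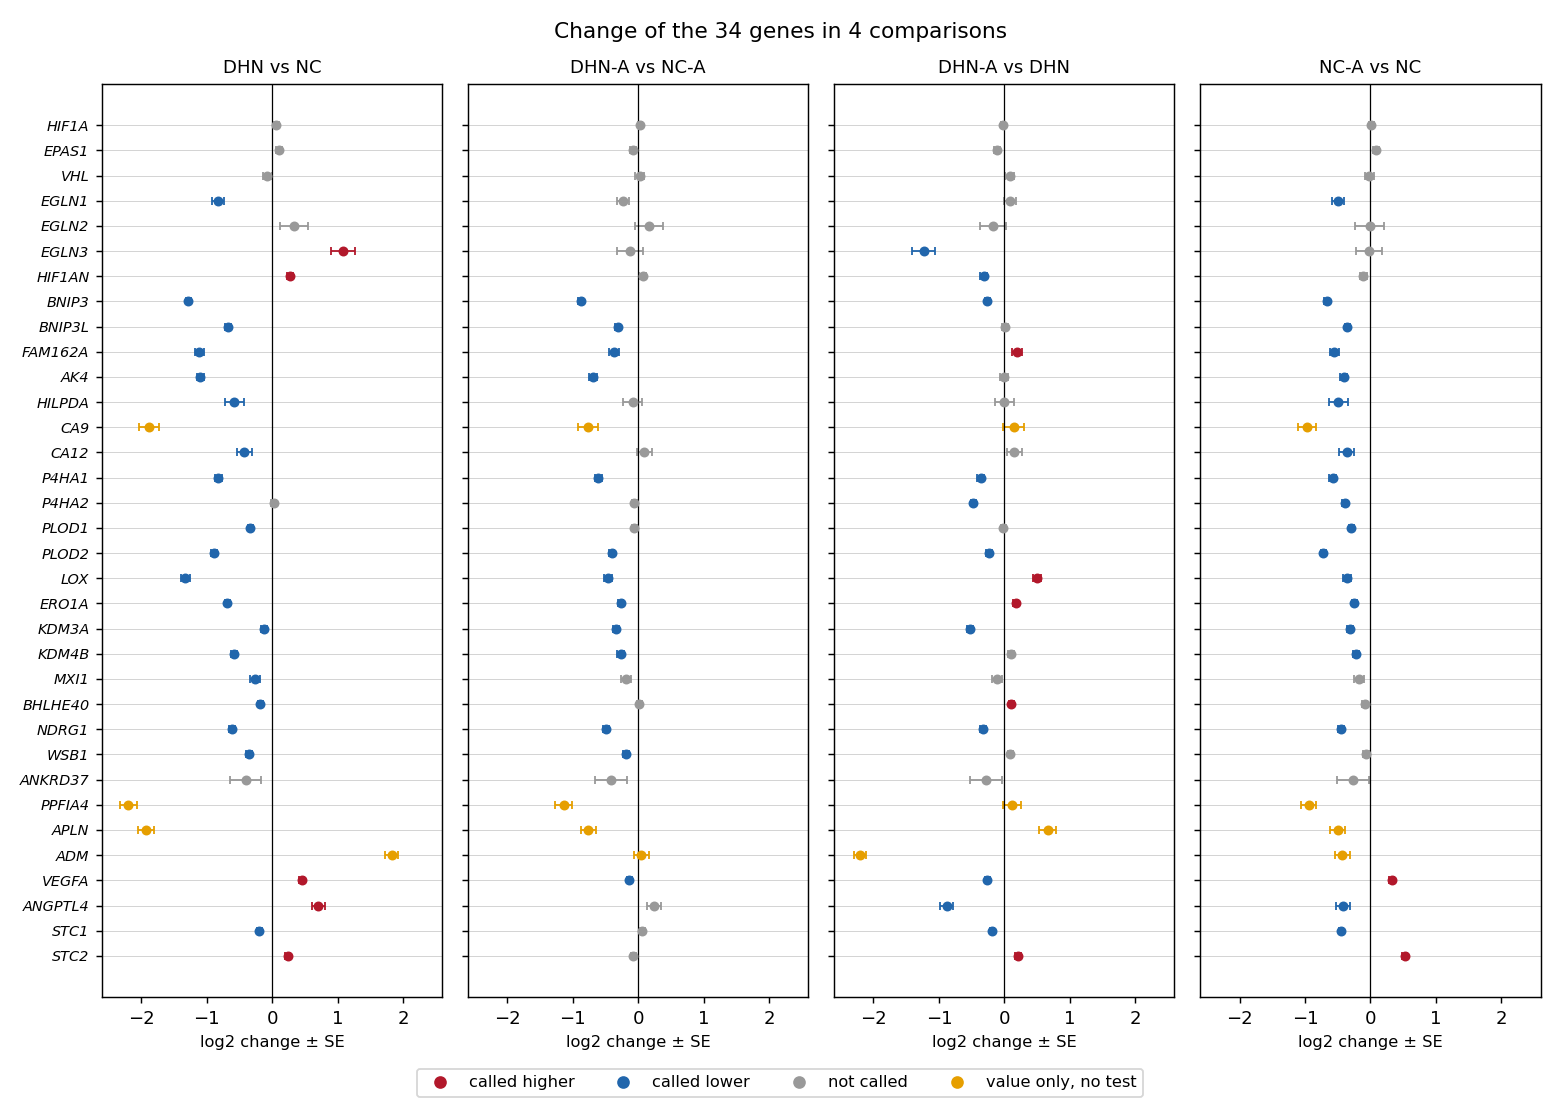
Log2 change ± SE of each of the 34 genes (rows, ordered by role) in 4 comparisons, with the first group named over the second. Red and blue points passed the test and grey points did not. Orange points are the 4 genes shown as values only, and their bars are not to be read as a test. Most of the blue points of DHN against NC lie further left than those of DHN-A against NC-A.

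Among the HIF subunits and oxygen sensors, EGLN1 fell and EGLN3 and HIF1AN rose in DHN against NC, and the other 4 of the 7 were not called. That comparison called 19.0% of all tested genes lower and 19.7% higher. HIF1A had 936, 959.6 and 953 CPM in DHN-A, 965, 982 and 944 CPM in DHN, 918, 931 and 942 CPM in NC-A and 899.5, 969 and 893 CPM in NC, and the range of NC overlapped that of each other group. Its log2 change was 0.066 ± 0.035 in DHN against NC (edgeR adjusted p = 0.134, or 0.0184 without NC 2). EPAS1 averaged 85.1 ± 3.66 CPM in DHN-A, 91.5 ± 1.60 in DHN, 90.2 ± 3.74 in NC-A and 84.8 ± 0.884 in NC (± SD, n = 3 each). It was at 0.11 ± 0.047 in DHN against NC (edgeR adjusted p = 0.0555, or 0.0453 without DHN-A 3). VHL, the substrate receptor of the ligase, was at -0.074 ± 0.068 in the same comparison. EGLN2, a nuclear prolyl hydroxylase, was at 0.33 ± 0.21 with a mean of 3.49 CPM in DHN and 2.77 in NC. In GENCODE release 29, 30.6% of its exon bases also belong to a read-through gene of the same strand, so its low counts are uncertain.

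EGLN1, the main oxygen sensor (chr1:231363751-231425044, GRCh38), had 46.5, 51.4 and 39.6 CPM in DHN-A, 47.7, 44.8 and 37.9 CPM in DHN, 52.8, 55.01 and 54.7 CPM in NC-A and 70.7, 79.03 and 78.5 CPM in NC. All treated groups lay under NC, and DHN and DHN-A lay under NC-A. It fell by 0.82 ± 0.092 in DHN against NC (edgeR adjusted p = 3.64e-06) and by 0.49 ± 0.091 in NC-A against NC (edgeR adjusted p = 0.00137). In DHN-A against NC-A it was not called, at -0.24 ± 0.093 (edgeR adjusted p = 0.268).

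EGLN3, a hydroxylase that HIF itself induces (chr14:33924231-34462774), had 2.88, 2.68 and 2.77 CPM in DHN-A, 6.04, 7.91 and 5.53 CPM in DHN, 2.74, 2.98 and 3.33 CPM in NC-A and 2.80, 2.99 and 3.38 CPM in NC. The DHN libraries lay above those of the other 3 groups, which overlapped. It rose by 1.08 ± 0.18 in DHN against NC, 2.12-fold (edgeR adjusted p = 2.48e-06), and fell in DHN-A against DHN by 1.23 ± 0.18 (edgeR adjusted p = 1.35e-07). In DHN-A against NC-A it was at -0.13 ± 0.20 and in NC-A against NC at -0.021 ± 0.20, neither called. HIF1AN, the asparaginyl hydroxylase, was also highest in DHN, with 75.3 to 81.97 CPM in DHN-A, 96.3 to 104 in DHN, 73.99 to 77.97 in NC-A and 79.8 to 85.4 in NC. It rose by 0.28 ± 0.048 in DHN over NC, and its log2 change in DHN-A over DHN was -0.32 ± 0.047, also called.

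The 5 genes of mitochondrial turnover, energy and lipid storage all fell both with 1,2-DHN (DHN against NC) and with asparagine (NC-A against NC). Across all tested genes, 19.0% and 10.9% were called lower in these comparisons, in that order. BNIP3, a mitophagy receptor of the outer mitochondrial membrane (chr10:131966455-131982013), had 113, 114 and 112 CPM in DHN-A, 129, 139.8 and 136 CPM in DHN, 215, 206 and 203 CPM in NC-A and 327, 332 and 329.7 CPM in NC. The 4 groups did not overlap, and the order was DHN-A lowest, then DHN, NC-A and NC. BNIP3 fell by 1.28 ± 0.040 in DHN against NC, 2.43-fold (edgeR adjusted p = 1.14e-29), by 0.88 ± 0.040 in DHN-A against NC-A (edgeR adjusted p = 2.41e-21), by 0.66 ± 0.039 in NC-A against NC and by 0.26 ± 0.041 in DHN-A against DHN. In DHN-A against NC, the sum of both treatments, it fell by 1.54 ± 0.039, 2.91-fold.

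BNIP3L, the related mitophagy receptor NIX (chr8:26382898-26505636), had 155, 148 and 146 CPM in DHN-A, 146, 154 and 146 CPM in DHN, 184, 188 and 187 CPM in NC-A and 238, 245 and 229 CPM in NC. DHN-A and DHN lay lowest, NC-A between and NC highest. It fell by 0.68 ± 0.041 in DHN against NC (edgeR adjusted p = 8.54e-19) and by 0.31 ± 0.041 in DHN-A against NC-A (edgeR adjusted p = 6.34e-07), and was at 0.012 ± 0.041 in DHN-A against DHN, not called. Genes on the other strand share 8.96% of its exon bases.

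FAM162A, a mitochondrial protein linked to hypoxic cell death (chr3:122384176-122412334), had 24.8, 24.5 and 23.2 CPM in DHN-A, 22.1, 21.7 and 20.03 CPM in DHN, 32.5, 31.4 and 30.1 CPM in NC-A and 42.6, 51.2 and 43.6 CPM in NC. No group overlapped NC, and the DHN-A libraries lay between DHN and NC-A. It fell by 1.11 ± 0.073 in DHN against NC (edgeR adjusted p = 2.17e-17) and by 0.37 ± 0.074 in DHN-A against NC-A (edgeR adjusted p = 0.00167). In DHN-A against DHN it rose by 0.19 ± 0.075 (edgeR adjusted p = 0.0403), a call that was lost without DHN 2 (0.0632), DHN 3 (0.217), DHN-A 1 (0.117) or DHN-A 2 (0.0997), with DESeq2 (adjusted p = 0.0985) and with limma-voom (adjusted p = 0.0604).

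AK4, a mitochondrial adenylate kinase (chr1:65147549-65232145), had 41.4, 42.7 and 41.2 CPM in DHN-A, 42.7, 39.4 and 43.5 CPM in DHN, 62.3, 65.9 and 73.8 CPM in NC-A and 89.7, 90.7 and 88.04 CPM in NC. The DHN-A and DHN libraries overlapped and lay lowest, NC-A lay between and NC highest. It fell by 1.10 ± 0.057 in DHN against NC (edgeR adjusted p = 3.91e-21), by 0.69 ± 0.057 in DHN-A against NC-A (edgeR adjusted p = 1.46e-12) and by 0.41 ± 0.055 in NC-A against NC, and was at -0.00090 ± 0.059 in DHN-A against DHN. HILPDA, a lipid droplet protein that inhibits lipolysis, had 6.44 to 8.10 CPM in DHN-A, 6.51 to 8.14 in DHN, 7.01 to 8.28 in NC-A and 7.94 to 12.3 in NC, so that every group overlapped NC. It was called lower in DHN against NC at -0.58 ± 0.14 and in NC-A against NC at -0.49 ± 0.14. The call in NC-A against NC was lost without NC 1 (edgeR adjusted p = 0.0615), NC 2 (0.104) or NC-A 3 (0.0671), and with limma-voom (adjusted p = 0.0644).

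**Figure D4:**
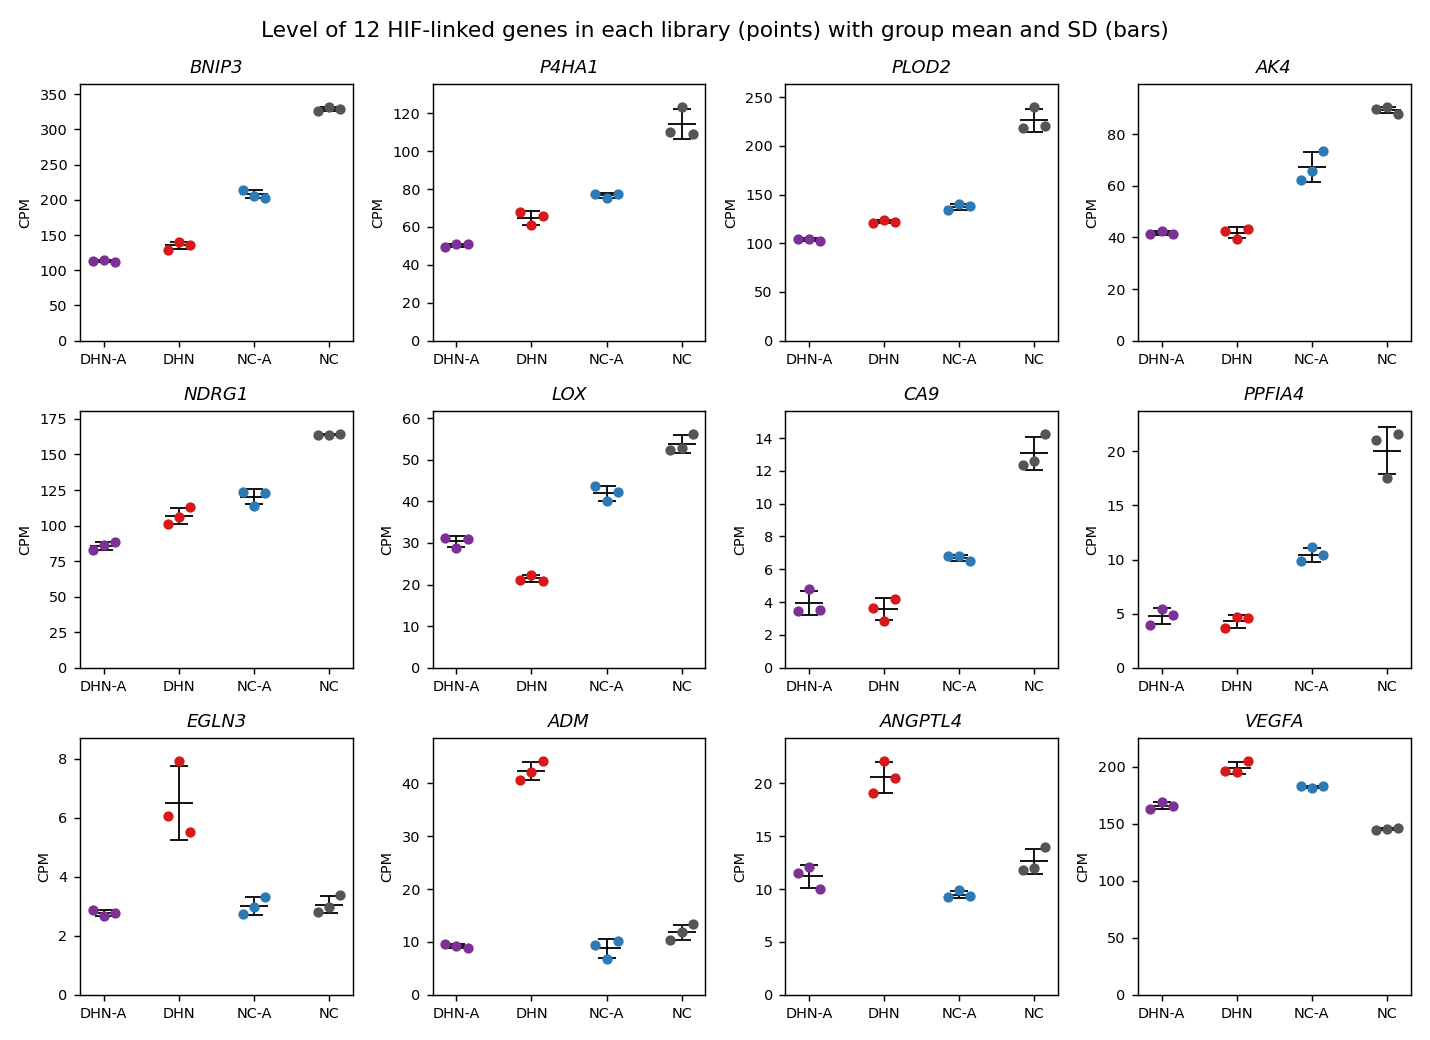
CPM of 12 HIF-linked genes in each library (points) with the group mean and SD (bars), for DHN-A, DHN, NC-A and NC. BNIP3, P4HA1, PLOD2, AK4 and NDRG1 are highest in NC and lower in all treated groups, while EGLN3, ADM and ANGPTL4 stand out in DHN.

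Both carbonic anhydrases, which hydrate carbon dioxide at the cell surface, were lower in DHN than in NC. CA9 (chr9:35673856-35681159) had 3.49, 4.78 and 3.51 CPM in DHN-A, 3.63, 2.86 and 4.18 CPM in DHN, 6.80, 6.83 and 6.49 CPM in NC-A and 12.4, 12.6 and 14.2 CPM in NC. DHN-A and DHN overlapped and lay under NC-A, which lay under NC. The log2 difference was -1.88 in DHN against NC, -0.97 in NC-A against NC, -0.77 in DHN-A against NC-A and 0.14 in DHN-A against DHN. The last of these turned negative without DHN 2 (-0.014) or DHN-A 2 (-0.025). ARHGEF39 on the opposite strand shares 38.5% of the exon bases of CA9, and since the sources used here do not give the strand setting of the counting, its level is uncertain. CA12 had 9.56 to 11.4 CPM in DHN-A, 8.64 to 10.3 in DHN, 8.36 to 10.9 in NC-A and 11.9 to 13.1 in NC, and fell by 0.42 ± 0.11 in DHN against NC and by 0.36 ± 0.12 in NC-A against NC. The second call was lost without NC 2 (edgeR adjusted p = 0.0708), NC 3 (0.052) or NC-A 2 (0.148).

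Of the 6 genes of collagen modification and oxidative folding, 5 fell in DHN against NC, 4 fell in DHN-A against NC-A, and in NC-A against NC all 6 fell. The shares of all tested genes called lower were 19.0%, 1.29% and 10.9%, in that order. P4HA1, a catalytic subunit of collagen prolyl hydroxylase (chr10:73007217-73096974), had 49.4, 50.8 and 50.97 CPM in DHN-A, 67.8, 60.9 and 65.7 CPM in DHN, 77.6, 75.2 and 77.4 CPM in NC-A and 110.3, 123 and 109 CPM in NC. The groups did not overlap, in the order DHN-A, DHN, NC-A and NC. It fell by 0.82 ± 0.051 in DHN against NC (edgeR adjusted p = 2.99e-18), by 0.61 ± 0.053 in DHN-A against NC-A (edgeR adjusted p = 1.16e-11), by 0.57 ± 0.051 in NC-A against NC and by 0.36 ± 0.053 in DHN-A against DHN.

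PLOD2, which hydroxylates lysines at the ends of collagen chains (chr3:146069440-146163653), had 104, 105 and 102 CPM in DHN-A, 121, 124 and 122 CPM in DHN, 134, 141 and 138 CPM in NC-A and 218, 239.9 and 221 CPM in NC. The order was again DHN-A, DHN, NC-A and NC with no overlap. It fell by 0.89 ± 0.042 in DHN against NC (edgeR adjusted p = 1.49e-22), by 0.72 ± 0.042 in NC-A against NC (edgeR adjusted p = 4.93e-18), by 0.41 ± 0.043 in DHN-A against NC-A and by 0.23 ± 0.043 in DHN-A against DHN. PLOD1, the lysyl hydroxylase of the collagen helix, fell by 0.33 ± 0.036 in DHN against NC and by 0.29 ± 0.036 in NC-A against NC, and its changes in the other comparisons within 1 condition were -0.014 ± 0.036 (DHN-A against DHN) and -0.058 ± 0.036 (DHN-A against NC-A), neither called.

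P4HA2, the other catalytic subunit, was not called in DHN against NC. It had 214 to 219.8 CPM in DHN-A, 299.8 to 305 in DHN, 218 to 234 in NC-A and 292 to 305 in NC. The 2 groups without asparagine overlapped and lay above the 2 groups with it. It was at 0.025 ± 0.037 in that comparison, and fell in DHN-A against DHN by 0.48 ± 0.037 (edgeR adjusted p = 1.01e-14) and by 0.39 ± 0.038 in NC-A against NC (edgeR adjusted p = 3.72e-11).

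LOX, the oxidase that crosslinks collagen and elastin (chr5:122063195-122078360), had 31.3, 28.9 and 30.9 CPM in DHN-A, 21.2, 22.3 and 20.9 CPM in DHN, 43.6, 40.04 and 42.2 CPM in NC-A and 52.4, 52.8 and 56.2 CPM in NC. The groups did not overlap, and here DHN lay lowest, then DHN-A, NC-A and NC. It fell by 1.33 ± 0.066 in DHN against NC (edgeR adjusted p = 9.22e-22) and by 0.47 ± 0.063 in DHN-A against NC-A (edgeR adjusted p = 2.09e-06), and rose by 0.50 ± 0.067 in DHN-A against DHN (edgeR adjusted p = 3.28e-08). ERO1A, the oxidase of the endoplasmic reticulum that recharges protein disulfide isomerase (chr14:52639916-52695900), had 217, 216 and 221 CPM in DHN-A, 187, 199 and 192 CPM in DHN, 262, 263 and 260.4 CPM in NC-A and 314, 323 and 294 CPM in NC. The order was the same as for LOX. It fell by 0.69 ± 0.039 in DHN against NC (edgeR adjusted p = 1.74e-19) and by 0.26 ± 0.039 in DHN-A against NC-A (edgeR adjusted p = 1.11e-05), and rose by 0.18 ± 0.039 in DHN-A against DHN (edgeR adjusted p = 0.000229).

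The 4 genes of chromatin and transcription all fell in DHN against NC, and 2 of them fell in DHN-A against NC-A. Background shares called lower were 19.0% and 1.29% of all tested genes, in that order. KDM3A, a demethylase of histone H3 lysine 9 (chr2:86440647-86492716), had 66.3, 67.04 and 67.2 CPM in DHN-A, 98.5, 92.9 and 97.1 CPM in DHN, 80.8, 85.9 and 86.3 CPM in NC-A and 108, 101 and 106 CPM in NC. The groups given asparagine lay under those without it, and DHN-A lay lowest. It fell by 0.52 ± 0.046 in DHN-A against DHN (edgeR adjusted p = 3.85e-13), by 0.34 ± 0.047 in DHN-A against NC-A (edgeR adjusted p = 3.76e-06) and by 0.31 ± 0.047 in NC-A against NC. The fall of 0.13 ± 0.045 in DHN against NC was not called without DHN 2 (edgeR adjusted p = 0.159), NC 1 (0.0812) or NC 3 (0.0643). KDM4B, another lysine 9 demethylase, had 70.6 to 78 CPM in DHN-A, 67.7 to 70.5 in DHN, 87.7 to 91.7 in NC-A and 98.9 to 109 in NC. It fell by 0.58 ± 0.049 in DHN against NC and by 0.27 ± 0.049 in DHN-A against NC-A. MXI1, an antagonist of MYC, fell by 0.26 ± 0.074 in DHN against NC and was not called in DHN-A against NC-A, at -0.19 ± 0.075. BHLHE40, a repressor of the circadian clock, fell by 0.18 ± 0.037 in DHN against NC and rose by 0.11 ± 0.037 in DHN-A against DHN. That rise was not called without DHN 1 (edgeR adjusted p = 0.0789), DHN 3 (0.0574) or DHN-A 2 (0.113).

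Of the other intracellular targets, NDRG1, a stress and differentiation gene (chr8:133237171-133302022), had 82.8, 86.3 and 88.2 CPM in DHN-A, 101, 106 and 113 CPM in DHN, 124, 114 and 123 CPM in NC-A and 164, 164 and 164 CPM in NC. The groups did not overlap, in the order DHN-A, DHN, NC-A and NC. It fell by 0.62 ± 0.045 in DHN against NC (edgeR adjusted p = 6.71e-16), by 0.49 ± 0.046 in DHN-A against NC-A (edgeR adjusted p = 8.9e-11), by 0.45 ± 0.045 in NC-A against NC and by 0.32 ± 0.046 in DHN-A against DHN. WSB1, the substrate receptor of a ubiquitin ligase, had 127 to 130.1 CPM in DHN-A, 119.7 to 122 in DHN, 146 to 147 in NC-A and 148 to 163 in NC. It fell by 0.35 ± 0.042 in DHN against NC and by 0.19 ± 0.042 in DHN-A against NC-A, a call lost with no filter on low counts (edgeR adjusted p = 0.0792), and was at -0.070 ± 0.042 in NC-A against NC, not called.

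PPFIA4 (chr1:203026498-203078740), whose promoter stretch is printed above, had 3.99, 5.47 and 4.84 CPM in DHN-A, 3.63, 4.72 and 4.55 CPM in DHN, 9.83, 11.1 and 10.4 CPM in NC-A and 21.1, 17.6 and 21.6 CPM in NC. DHN-A and DHN overlapped, NC-A lay above them and NC was highest. The log2 difference was -2.20 in DHN against NC, -1.13 in DHN-A against NC-A, -0.94 in NC-A against NC and 0.12 in DHN-A against DHN. ANKRD37, a short ankyrin repeat protein (chr4:185396021-185400628), was low, with 1.87, 2.48 and 1.16 CPM in DHN-A, 2.26, 2.34 and 2.14 CPM in DHN, 1.77, 2.62 and 2.93 CPM in NC-A and 2.98, 3.19 and 2.75 CPM in NC. All groups but NC overlapped one another, and NC overlapped NC-A. Only the fall of 0.68 ± 0.23 in DHN-A against NC passed the test among its 5 pairwise comparisons (edgeR adjusted p = 0.0307), and it was lost without DHN-A 1 (0.0806), DHN-A 3 (0.213), NC 1 (0.0674) or NC 2 (0.108) and with DESeq2 (0.0728) or no filter on low counts (0.0542). Its counts are uncertain, since 35.2% of its exon bases also belong to UFSP2 on the opposite strand.

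The secreted factors did not move together. Of the 4 that were tested, VEGFA, ANGPTL4 and STC2 rose and STC1 fell in DHN against NC. There, 19.7% of all tested genes were called higher and 19.0% lower. VEGFA, the main growth factor of blood vessels, had 163, 169 and 165 CPM in DHN-A, 196, 196 and 205 in DHN, 183, 181 and 183 in NC-A and 144, 146 and 146 in NC. All treated groups lay above NC and DHN lay highest. It rose by 0.45 ± 0.039 in DHN against NC (edgeR adjusted p = 2e-13) and by 0.33 ± 0.040 in NC-A against NC (edgeR adjusted p = 1.74e-08), and fell in DHN-A against DHN by 0.26 ± 0.038 (edgeR adjusted p = 1.8e-07). In DHN-A against NC-A it was called lower at -0.14 ± 0.039 (edgeR adjusted p = 0.0466), and that call was lost when any of 9 of the 12 libraries was left out, with adjusted p-values of 0.0902 to 0.221 without DHN-A 1, 2 or 3 and 0.122 to 0.19 without NC-A 1, 2 or 3, and between 0.0553 and 0.0584 without DHN 1, DHN 2 or NC 1. It was also lost with no filter on low counts (edgeR adjusted p = 0.492).

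ADM, the vasodilator peptide adrenomedullin (chr11:10304680-10307397), had 9.53, 9.21 and 8.81 CPM in DHN-A, 40.7, 42.1 and 44.2 CPM in DHN, 9.46, 6.76 and 10.2 CPM in NC-A and 10.4, 11.8 and 13.3 CPM in NC. The DHN libraries lay apart from all others, and DHN-A overlapped NC-A. The log2 difference was 1.83 in DHN against NC, 3.55-fold, and -2.21 in DHN-A against DHN, while it was -0.43 for NC-A over NC. For DHN-A over NC-A it was 0.048, and it turned to -0.10 without NC-A 2. ANGPTL4, shown above with 1 core match (chr19:8363289-8374373), had 11.5, 12.1 and 10 CPM in DHN-A, 19.1, 22.1 and 20.5 CPM in DHN, 9.24, 9.88 and 9.31 CPM in NC-A and 11.8, 12.02 and 13.98 CPM in NC. DHN again lay above all other groups. It rose by 0.71 ± 0.097 in DHN against NC (edgeR adjusted p = 5.37e-08) and fell in DHN-A against DHN by 0.88 ± 0.096 (edgeR adjusted p = 1.65e-10). The fall of 0.42 ± 0.11 in NC-A against NC was not called without NC 3 (edgeR adjusted p = 0.052).

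APLN, the ligand of the apelin receptor (chrX:129645259-129654937), had 6.47, 6.38 and 7.03 CPM in DHN-A, 3.79, 4.62 and 4.00 CPM in DHN, 10.9, 11.8 and 11.03 CPM in NC-A and 17.3, 14.2 and 16.2 CPM in NC. The order was DHN, DHN-A, NC-A and NC. The log2 difference was -1.93 in DHN against NC, -0.76 in DHN-A against NC-A, -0.50 in NC-A against NC and 0.66 in DHN-A against DHN. STC1, a glycoprotein hormone, had 450.3 to 484 CPM in DHN-A, 524 to 543 in DHN, 439 to 466 in NC-A and 603 to 621 in NC. It fell by 0.45 ± 0.036 in NC-A against NC (edgeR adjusted p = 2.08e-13) and by 0.20 ± 0.036 in DHN against NC. Its paralogue STC2 moved the other way, with 217 to 229 CPM in DHN-A, 186 to 199 in DHN, 221 to 252 in NC-A and 157 to 169 in NC. STC2 rose by 0.52 ± 0.044 in NC-A against NC (edgeR adjusted p = 1.07e-12), by 0.24 ± 0.044 in DHN against NC and by 0.21 ± 0.043 in DHN-A against DHN.

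Whether asparagine changed the effect of 1,2-DHN was tested with the interaction, the log2 change of DHN-A against NC-A minus that of DHN against NC. It was called above 0 for 15 of the 30 genes and below 0 for 7, where 13.2% of all tested genes were called above and 12.5% below, and the median was 0.18. Of the 12 genes that 1,2-DHN lowered with and without asparagine, BNIP3 had an interaction of 0.41 ± 0.056 (edgeR adjusted p = 1.63e-07), PLOD2 of 0.49 ± 0.060 (edgeR adjusted p = 1.26e-08), LOX of 0.86 ± 0.091 (edgeR adjusted p = 2.71e-10) and FAM162A of 0.74 ± 0.10 (edgeR adjusted p = 2.11e-07). These falls with 1,2-DHN were thus smaller in the presence of asparagine. The mean level in DHN-A was still under that in DHN for BNIP3 (113 and 135 CPM) and PLOD2 (104 and 122). It was above DHN for LOX (30.4 and 21.5 CPM) and FAM162A (24.15 and 21.3). The interaction of NDRG1 was not called, at 0.13 ± 0.064 (edgeR adjusted p = 0.154). KDM3A ran the other way at -0.21 ± 0.065, with a larger fall in the presence of asparagine, and was not called without NC-A 3 (edgeR adjusted p = 0.054).

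For the genes raised by 1,2-DHN, the interaction was below 0. EGLN3 had -1.21 ± 0.27 (edgeR adjusted p = 0.000437), VEGFA -0.59 ± 0.055 (edgeR adjusted p = 7.12e-12), ANGPTL4 -0.46 ± 0.15 (edgeR adjusted p = 0.014) and STC2 -0.31 ± 0.062 (edgeR adjusted p = 0.000123). The call of ANGPTL4 was lost with no filter on low counts (edgeR adjusted p = 0.0562). HIF1AN was at -0.21 ± 0.069, a call lost without DHN-A 2 (edgeR adjusted p = 0.0733), DHN 3 (0.0587), NC-A 2 (0.0656) or NC 3 (0.0541). The value of ADM was -1.78, and those of APLN, CA9 and PPFIA4 were 1.17, 1.11 and 1.06, given with no test. P4HA1 at 0.22 ± 0.074 was not called without NC 2 (edgeR adjusted p = 0.107), NC-A 2 (0.0582), DHN 2 (0.128), DHN-A 2 (0.0501) or DHN-A 3 (0.055).

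**Figure D5:**
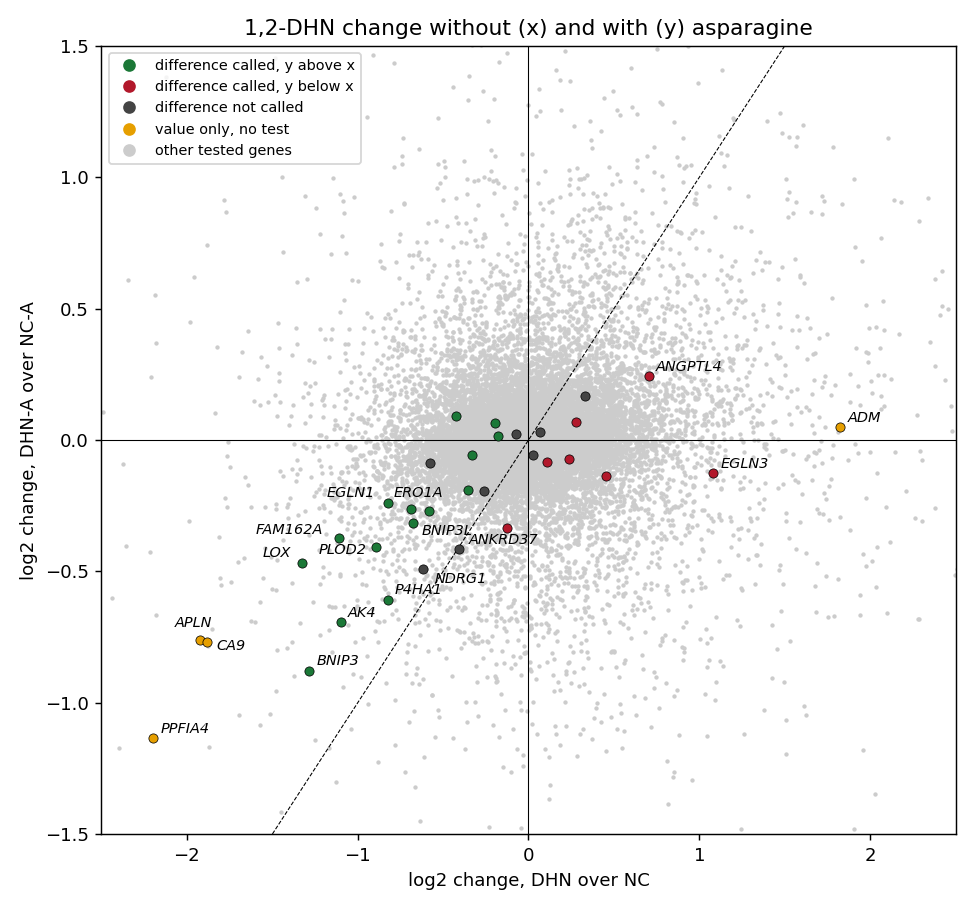
Log2 change with 1,2-DHN in cells without asparagine (horizontal, DHN over NC) and with it (vertical, DHN-A over NC-A) for the 34 genes (large points) and all other tested genes inside the axes (grey), with the dashed line where both are equal. The 2 changes share no library; BNIP3, at -1.28 and -0.88, and AK4 lie low on both axes, while EGLN3 and ADM lie far to the right and close to 0 on the vertical axis.

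DHN-A against NC-A and DHN against NC share no library, so their calls can be set side by side as lists. Of the 13 genes called lower in DHN-A against NC-A, 12 (92.3%) were also among the 19 called lower in DHN against NC, of which they made up 63.2%. Over all tested genes, 146 were called lower in both, 63.2% of the 231 in DHN-A against NC-A and 4.3% of the 3399 in DHN against NC. The 12 were BNIP3, BNIP3L, FAM162A, AK4, P4HA1, PLOD2, LOX, ERO1A, KDM3A, KDM4B, NDRG1 and WSB1, and the one other gene, VEGFA, was higher in DHN than in NC.

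DHN-A against DHN and NC-A against NC, the 2 comparisons of asparagine, also share no library. Of the 11 genes called lower in DHN-A against DHN, 8 (72.7%) were among the 18 called lower in NC-A against NC, of which they made up 44.4%. Over all tested genes, 876 were called lower in both, 23.6% of those in DHN-A against DHN and 45.1% of those in NC-A against NC. The 8 were BNIP3, NDRG1, P4HA1, P4HA2, PLOD2, KDM3A, ANGPTL4 and STC1. STC2 was called higher in both, while LOX, ERO1A and FAM162A were higher in DHN-A than in DHN and lower in NC-A than in NC.

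Further genes of the pathway were counted in the same fit. Of 28 other HIF targets 25 were tested, and 13 fell and 1 rose in DHN against NC, with a median log2 change of -0.33, where 19.0% of all tested genes were called lower and 19.7% higher. The 4 largest falls were those of TMEM45A, a membrane protein (-1.23 ± 0.15), TFRC, the transferrin receptor (-1.002 ± 0.039), VLDLR, a lipoprotein receptor (-0.97 ± 0.098), and SPAG4, a nuclear envelope protein (-0.86 ± 0.16). JMJD6, a 2-oxoglutarate dioxygenase, was the 1 that rose, by 0.53 ± 0.055; it is named after its value was seen, since its rise was under 1.5-fold. In DHN-A against DHN 8 rose and 2 fell, among them LOXL4, a relative of LOX (1.32 ± 0.33), NT5E, the ectonucleotidase CD73 (0.76 ± 0.033), and JMJD6 (-0.79 ± 0.055), where 20.9% of all tested genes were called higher and 20.8% lower. In NC-A against NC 2 rose, NDUFA4L2, a mitochondrial protein (1.16 ± 0.39), and LOXL4 (0.93 ± 0.34), and 8 fell, led by TMEM45A (-0.72 ± 0.15). Of all tested genes 9.32% were called higher and 10.9% lower in that comparison, so that the share of rises is near the background. Of these 2 rises, 1 was called when any of 8 libraries outside DHN was left out, and 0 without NC 1. Levels of LOXL4 and NDUFA4L2 were low, with group means between 0.57 and 1.76 CPM. In DHN-A against NC-A 5 of the 25 fell, among them DDIT4, an inhibitor of mTOR (-0.59 ± 0.096), TFRC (-0.61 ± 0.038), VLDLR (-0.55 ± 0.091) and the glycogen branching enzyme GBE1 (-0.31 ± 0.046), where 1.29% of all tested genes were called lower. VLDLR and GBE1 changed by less than 1.5-fold and are named after their values were seen. The median of the 25 in that comparison was -0.24, against 0.0030 over all tested genes.

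Of 15 partners and regulators of HIF 14 were tested, and 6 rose and 3 fell in DHN against NC, where 19.7% of all tested genes were called higher and 19.0% lower. HSP90AA1, a chaperone that stabilises the alpha subunit, rose by 0.73 ± 0.041 and CITED4, which competes for the coactivators, fell by 0.60 ± 0.10. In DHN-A against DHN 3 rose and 6 fell, among them ARNT2, an alternative partner of the alpha subunit (0.62 ± 0.069), ELOC, the elongin subunit that binds VHL (-0.79 ± 0.084), HSP90AA1 (-0.73 ± 0.041) and CITED2, a competitor for the same coactivators (-0.59 ± 0.044), where 20.9% of all tested genes were called higher and 20.8% lower. In both comparisons the group of 3 is near the background share. The log2 changes of the 14 lay between -0.14 and 0.16 in DHN-A against NC-A.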

How the data were processed

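The 12 libraries were stranded RNA-seq libraries of total RNA from SRA01/04 cells, per the labels' protocols. The authors deposited raw read counts per gene symbol with a gene length. Per the submitters' processing notes, reads were aligned with Bowtie to hg38. The sources used here do not give versions, the counting tool, its strand setting or the annotation, so reads of overlapping genes may be split or lost.

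Genes were filtered with edgeR's filterByExpr, libraries scaled by trimmed means of M values, and a quasi-likelihood model with a mean for each of 4 groups fitted to all 12 libraries (edgeR 4.0.16, R 4.3.3), so that comparisons share 1 estimate of the spread. P-values were adjusted by Benjamini-Hochberg over 17889 genes in each of 6 comparisons, with a threshold of 0.05. Standard errors are the log2 change divided by the square root of its F value, and are approximate for large changes. The procedure was tested on simulated data. CPM and TPM were computed from the counts. Library values are given for genes called with at least a 1.5-fold change in a pairwise comparison and for PPFIA4, APLN, CA9 and ADM; those of HIF1A and VEGFA, which changed less, were added after their values were seen. Of the other HIF lists, genes called with at least a 1.5-fold change are named, up to 4 in each direction. Some genes of the lists are not reported here by name. The members and lists were chosen with earlier results of these data known. Coordinates come from GENCODE release 29 by symbol and promoters from RefSeq (GRCh38.p14). Results were recomputed with limma-voom (limma 3.58.1), DESeq2 1.42.0, relative log expression factors, unfiltered counts, a replicate block, a fit of the compared groups alone, and without each library in turn. Pairs within a group had a mean chi-square per gene of 1.77 to 4.34, so no library looked like a repeat deposit.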

Additional observations from a re-analysis of the deposited data

Results flagged for a closer look

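The effect of 1,2-DHN with asparagine (DHN-A over NC-A) differed from that without it (DHN over NC) for 22 of the 30 tested genes. The edgeR interaction test called 13.2% of all tested genes above 0 and 12.5% below. Values given here are log2 differences of the 2 changes. Among the collagen and folding genes it was 0.86 for LOX, 0.49 for PLOD2, 0.42 for ERO1A, 0.27 for PLOD1 and 0.22 for P4HA1. Among the mitochondrial genes it was 0.74 for FAM162A, 0.41 for BNIP3, 0.40 for AK4 and 0.36 for BNIP3L. Further positive values were 0.58 for EGLN1, 0.52 for CA12, 0.32 for KDM4B, 0.26 for STC1, 0.19 for BHLHE40 and 0.16 for WSB1. Negative values were -1.21 for EGLN3, -0.59 for VEGFA, -0.46 for ANGPTL4, -0.31 for STC2, -0.21 for KDM3A, -0.21 for HIF1AN and -0.19 for EPAS1.

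The calls of EPAS1, HIF1AN, P4HA1, CA12 and WSB1 were each lost when 1 of several libraries was left out, and that of KDM3A without NC-A 3. For WSB1 this held for 10 of the 12 libraries, with edgeR adjusted p-values of 0.0519 without NC-A 1 to 0.138 without NC 2. For EPAS1 the adjusted p was 0.102 without DHN-A 1, 0.101 without NC-A 1 and 0.0574 without NC 1, and for CA12 it was 0.0559 without DHN-A 1, 0.0503 without DHN 3 and 0.0627 without NC-A 2.

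APLN was higher in every DHN-A library than in every DHN library, and lower in every NC-A library than in every NC library, so that asparagine moved it in opposite directions with and without 1,2-DHN. The interaction value was 1.17, and this difference was not tested because APLN was included for its large change.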

How the results depend on the processing

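The 119 log2 changes followed under the alternatives were those called in the edgeR fit, with HIF1A, EPAS1 and VHL in DHN against NC added. In the fit of the compared groups alone, 97 of them were recomputed, without the interaction. Of 2120 values, 2050 kept their direction and their side of the threshold, 68 lost the call, 2 gained it and 0 reversed. Other changes not called were not followed by gene, so most gains of a call are not counted here. The 30 genes called lower reached 12 in DHN-A against DHN, against 11, and 19 in NC-A against NC, against 18. The 3 values with no test that moved were those of CA9 and ADM given in the report. They changed sign, from differences no larger than the spread between replicates. The count of the 30 genes called below 0 in the interaction was 3 with no filter on low counts, against 7 with it, and the calls lost were EPAS1, HIF1AN, KDM3A and ANGPTL4; the cause was not tested. The count called higher in DHN-A against DHN ran between 3 and 6 with 1 library left out, against 5. Of the other HIF targets, those higher in NC-A against NC numbered 1 with DESeq2, 1 with only the groups compared, 0 with no filter and 0 to 2 with 1 library left out, against 2. Those lower in DHN-A against DHN numbered 1 with no filter, 1 with the replicate block and 1 to 3 with 1 library left out, against 2. Of the HIF partners, those higher in DHN-A against NC-A numbered 2 with DESeq2 and 1 with no filter, against 0 in the edgeR fit, and those lower in DHN-A against NC numbered 1 with no filter and 1 to 4 with 1 library left out, against 3. Same-numbered libraries of different groups had deviations correlated between -0.18 and 0.23, and other-numbered ones between -0.27 and 0.29. No shared effect of the replicate number was thus seen, which cannot tell whether samples were prepared in pairs. With the replicate block, 1,2-DHN lowered 19 of the 30 genes without asparagine and 12 with it, where VEGFA was lost (edgeR adjusted p = 0.0654). With 3 libraries a group and low counts, changes of EGLN2, ANKRD37 and EGLN3 rest on few reads and are the least precise.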
